A study of Mus musculus with 7 samples.

Results

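A set of 8 genes of the RAS signaling pathway was followed from the preleukemic to the leukemic state in B-cell precursors (BCP) of the Eμ-Ret mouse: Flt3, Ptpn11, Sos1, Nras, Hras, Braf, Nf1 and Cbl. They were chosen by name, as RAS pathway components that are recurrently mutated in human high-hyperdiploid B-cell acute lymphoblastic leukemia or act directly beside such components, and all 8 were among the 24341 genes listed. The RNA came from spleen BCP samples of Emu-Ret hemizygotes on a BALB/c background, 3 labelled leukemic (overt disease) and 4 labelled preleukemic. Every sample carried the transgene, an oncogenic Ret fusion driven by the IgH enhancer, so no sample of a transgene-free mouse entered the comparison. The study describes the leukemic cells as coming from moribund older mice and the preleukemic cells as coming from young healthy mice, so that age and disease state cannot be told apart, and both sexes were used. Values are FPKM (fragments per kilobase of transcript, scaled to the mapped fragments of the library), which can be compared between genes since length is divided out. An FPKM table carries no base calls, and whether any sample held a mutated allele of these genes was not examined.

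RAS proteins are small GTPases that switch between an inactive GDP-bound and an active GTP-bound form at the inner face of the cell membrane. A receptor tyrosine kinase such as FLT3, once bound by its ligand, recruits adaptors and the phosphatase SHP2 (the product of Ptpn11), and these bring the exchange factor SOS1 to load RAS with GTP. Active RAS engages RAF kinases, BRAF among them, which start the MEK and ERK kinase cascade. Neurofibromin (Nf1) ends the signal by speeding GTP hydrolysis, and the ubiquitin ligase CBL marks activated receptors for removal. In hyperdiploid leukemia of children, activating mutations in this pathway are among the most frequent point mutations. The Ret fusion of this mouse is itself a receptor tyrosine kinase derivative that lies upstream of the same pathway.

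Hras and Nras encode closely related GTPases, so their transcripts (GENCODE M21) were compared with those of all other genes to see whether short reads could be told apart. No run of 50 bases of Hras occurred in a transcript of another gene, and neither did any of Flt3, Ptpn11, Sos1, Braf or Nf1. Only the transcript nearest the listed position of each member was searched, in the sense direction. Bases shared with genes on the opposite strand are not covered by it. In Nras 0.792% of the 50-base runs were shared with other genes, and in Cbl 4.18%. Runs of 50 bases therefore separate Hras from Nras, while a small part of Nras and Cbl could be counted elsewhere or not at all.

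The 250 bases ahead of the annotated start are shown for the 3 members whose leukemic and preleukemic values did not overlap, from RefSeq on GRCm38.p6 and on the strand of the gene. Of all genes that passed the filter on low values given below, 32% did not overlap either. Capitals mark letters that match a GC box (GGGCGG) or an ETS core (CCGGAA) on either strand. The Flt3 window is chr5:147400490-147400739 (minus strand), the Braf window chr6:39725464-39725713 (minus strand) and the Nf1 window chr11:79339642-79339891 (plus strand).
Flt3: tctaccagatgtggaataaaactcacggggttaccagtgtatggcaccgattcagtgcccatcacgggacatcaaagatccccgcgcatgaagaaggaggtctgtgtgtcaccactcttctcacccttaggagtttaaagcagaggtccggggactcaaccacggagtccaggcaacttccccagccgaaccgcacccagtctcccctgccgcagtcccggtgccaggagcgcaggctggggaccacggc
Braf: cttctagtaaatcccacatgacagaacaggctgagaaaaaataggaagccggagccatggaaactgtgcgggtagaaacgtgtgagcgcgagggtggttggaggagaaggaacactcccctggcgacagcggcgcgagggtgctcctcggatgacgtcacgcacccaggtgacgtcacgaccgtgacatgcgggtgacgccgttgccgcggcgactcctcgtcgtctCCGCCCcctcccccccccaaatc
Nf1: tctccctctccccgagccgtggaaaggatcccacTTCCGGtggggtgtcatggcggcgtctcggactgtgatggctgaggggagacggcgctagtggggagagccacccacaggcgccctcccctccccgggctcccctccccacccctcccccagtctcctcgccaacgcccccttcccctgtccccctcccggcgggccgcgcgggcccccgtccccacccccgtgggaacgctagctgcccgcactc
The Flt3 window held neither motif, the Braf window 1 GC box and the Nf1 window 1 ETS core. Their GC content was 59.2%, 62.0% and 74.0%, against a median of 52.4% over 32851 promoters. Among the 8 members, a GC box was present in 5 and an ETS core in 5, while 32.7% and 12.0% of all promoters of the same length held them. GC content of the 8 windows ran from 48.4% (Nras) to 74.0% (Nf1), and the shares of all promoters were not matched for it. CCAAT occurred in 1 member (33.8% of all promoters) and TATAAA in 0 (12.4%).

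Before the members are compared, the composition of the samples is given, since it differed between the groups. The labels describe the BCP of both groups as sorted by flow cytometry. The study's methods give the gate, which includes BP-1, for preleukemic cells, and state for the culture experiments that leukemic spleen cells were mostly used without enrichment. Enpep, which encodes the BP-1 antigen, was present in every sample and was 19.1 to 102 FPKM in leukemic and 134 to 210 FPKM in preleukemic samples. Of 12 BCP markers, 10 were lower in every leukemic sample than in any preleukemic sample (summed FPKM 3156 to 4574 against 6113 to 7592). Markers of other cells ran the other way. All 9 erythroid markers found were above every preleukemic sample (sum 4413 to 20290 against 326 to 2116), as were all 10 macrophage markers (158 to 350 against 34.9 to 85.6), all 8 neutrophil markers found (1394 to 1723 against 146 to 847) and all 5 platelet markers (12.8 to 51.2 against 0.338 to 2.90). Of 7 T and NK cell markers 2 did so (10.2 to 34.0 against 6.43 to 12.3), and the 4 mature B cell markers overlapped. The defining markers Csf1r (macrophages), S100a8 (neutrophils) and Cd3e (T cells) were above 0 in every sample. The erythroid sum was highest in leukemic replicate 2 and, among preleukemic samples, in replicate 1. These are bulk samples, so a smaller share of a cell type and less RNA per cell cannot be told apart, and the part that other cells played in the differences below was not tested. The implied depth was about 12750000 to 15140000 fragments per sample, at which the members other than Flt3 rested on about 429 to 2756 fragments each.

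In both groups Nras was the highest of the 8 genes and Flt3 the lowest. The leukemic means fell in the order Nras, Ptpn11, Cbl, Hras, Sos1, Braf, Nf1 and Flt3, and the ranges of neighbours overlapped between Nras and Ptpn11, Ptpn11 and Cbl, and Braf and Nf1. The preleukemic order was the same except that Nf1 stood above Braf, and there the ranges overlapped only between Sos1 and Nf1 and between Nf1 and Braf. By mean level Nras lay at percentile 74.5 of the 10541 genes tested and Ptpn11 at 68.6, while Braf lay at 18.1 and Nf1 at 18.9. Within the set, Nras and Ptpn11 were thus several times more abundant than Braf and Nf1. Other genes of the same kinds stood higher than Braf and Nf1. Over all samples the RAF kinase Araf averaged 33.1 FPKM, and the GTPase-activating proteins Rasa3 and Dab2ip averaged 106 and 23.1 FPKM.

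**Figure D1:**
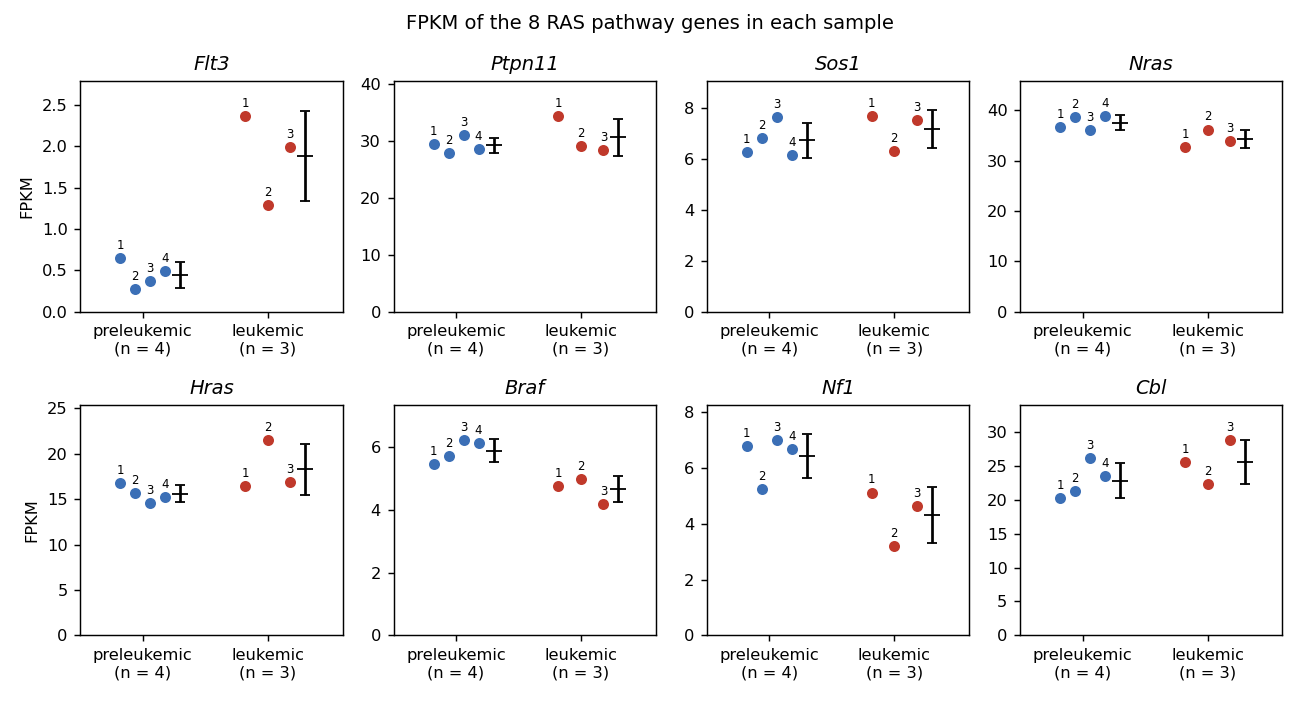
FPKM of each member (vertical axes from 0, a scale of its own per gene) in the 4 preleukemic samples (blue) and the 3 leukemic samples (red), numbered by replicate, with the mean and SD of each group in black. Flt3 stands higher in all 3 leukemic samples, Braf and Nf1 stand lower in all 3, and the other 5 members overlap.

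Of the 8 members, 7 passed the filter on low values (a summed FPKM of at least 10), and 0 of these were called between the groups by limma at a Benjamini-Hochberg adjusted p under 0.05, against 14.7% of all genes tested. At an unadjusted p under 0.05, 2 of the 7 passed (Braf and Nf1, both lower), beside 34% of all genes tested in either direction and 17.5% lower. The leukemic and preleukemic values did not overlap in 2 of the 7, Braf and Nf1, both lower in leukemia, against 32% of all genes tested in either direction and 17.1% lower. The log2 fold changes of the 7 ran from -0.49 to 0.21 with a median of 0.06, beside -0.02 over all genes tested. All fold changes here are of FPKM + 1 on the log2 scale, which understates the change of low genes. When the values were rescaled to TPM (every sample brought to the same FPKM total), 3 of the 7 were called lower, Braf, Nf1 and Nras, but the median of all genes then moved to -0.18 and 27.7% of genes were called. Relative to that median their log2 fold changes were -0.28, -0.51 and -0.11. The animals behind the samples are not identified in the labels, so the tests measure the spread between these samples.

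The receptor Flt3, a cytokine receptor of early hematopoietic progenitors (chr5:147330741-147400489), was the member with the widest difference. It stood at 2.36, 1.29 and 1.99 FPKM in leukemic replicates 1 to 3 and at 0.648, 0.278, 0.376 and 0.488 FPKM in preleukemic replicates 1 to 4. Every leukemic value was above every preleukemic value, and both levels were low beside the other members. The means were 1.88 ± 0.546 (SD, n = 3) and 0.447 ± 0.159 (SD, n = 4), a ratio of 4.20. With a summed FPKM of 7.43 the gene did not reach the filter, so it has no place in the fit across genes. An exact two-sided permutation test of its log2 values gave p = 0.0286, the smallest that the 35 ways of labelling 3 of 7 samples can give. It was not adjusted for the 8 members, and it restates the lack of overlap. Of all genes tested, a set without Flt3, 14.9% did not overlap in this direction and 32% in either. In the limma fit without a filter, over 24341 genes of which 2.9% were called, the Flt3 log2 fold change was 0.98 (SE 0.16, adjusted p = 0.0464). That fit included 7665 genes at 0.01 FPKM, the lowest listed value, in all samples. In it the SE of the other members was smaller than with the filter (Nras 0.04 against 0.07), except for Nf1. What these genes did to the adjusted p was not tested. A pseudocount of 0.1 in place of 1 gave a Flt3 log2 fold change of 1.86. The values correspond to about 69 to 124 fragments in leukemic and 14 to 33 in preleukemic samples, and counting error alone was 26.9% at the fewest. Within the leukemic group Flt3 was lowest in replicate 2. That sample had the highest BCP, mature B, erythroid, macrophage, platelet and T and NK sums of its group and the lowest neutrophil sum. Within the preleukemic group Flt3 was highest in replicate 1. This sample had the highest erythroid, macrophage, neutrophil and platelet sums of its group and the lowest BCP sum. Without both samples the log2 fold change was 1.20 and the values still did not overlap (exact permutation p = 0.1, the smallest that 2 against 3 samples can give).

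Downstream of the receptor, Ptpn11 (chr5:121130532-121191397) encodes SHP2, the phosphatase that relays receptor signals toward RAS. It stood at 34.4, 29.2 and 28.3 FPKM in leukemic samples and at 29.5, 28.0, 31.0 and 28.7 FPKM in preleukemic samples. The groups overlapped, with leukemic replicate 1 alone above the preleukemic range. Its log2 fold change was 0.06 (SE 0.09, 95% interval -0.15 to 0.27, limma adjusted p = 0.672), and leaving out 1 sample moved it from -0.02 (without leukemic replicate 1) to 0.11 (without leukemic replicate 3).

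Sos1 (chr17:80393751-80480453), the exchange factor that loads RAS with GTP, was measured at 7.68, 6.32 and 7.53 FPKM in leukemic samples. The preleukemic values were 6.26, 6.84, 7.66 and 6.17 FPKM, and the groups overlapped. Sos1 had a log2 fold change of 0.08 (SE 0.11, 95% interval -0.19 to 0.35, limma adjusted p = 0.641), which was 0.04 without leukemic replicate 1 and 0.16 without leukemic replicate 2.

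Among the GTPases, Nras (chr3:103058284-103067914) stood at 32.8, 36.2 and 34.0 FPKM in leukemic samples and at 36.7, 38.7, 36.0 and 38.8 FPKM in preleukemic samples. Leukemic replicate 2 lay just inside the preleukemic range, and the other leukemic samples lay below it. Between the groups the log2 fold change was -0.13 (SE 0.07, 95% interval -0.30 to 0.04, limma adjusted p = 0.253). Hras (chr7:141189933-141194004), the second RAS GTPase of the set, was 16.5, 21.5 and 16.9 FPKM in leukemic samples and 16.8, 15.7, 14.6 and 15.3 FPKM in preleukemic samples. Leukemic replicate 2 stood apart as the highest Hras value, and replicate 1 lay within the preleukemic range. The log2 fold change of Hras was 0.21 (SE 0.11, 95% interval -0.05 to 0.47, limma adjusted p = 0.219). It was 0.09 without leukemic replicate 2 and 0.05 after TPM rescaling.

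Braf (chr6:39603236-39725463), the RAF family kinase that RAS activates, was lower in every leukemic sample. It stood at 4.77, 4.99 and 4.20 FPKM there and at 5.46, 5.71, 6.23 and 6.14 FPKM in preleukemic samples. The means were 4.65 ± 0.412 (SD, n = 3) and 5.89 ± 0.362 (SD, n = 4). The log2 fold change was -0.29 (SE 0.11, 95% interval -0.53 to -0.04), and it did not pass the adjusted threshold (limma adjusted p = 0.105). Without leukemic replicate 2 and preleukemic replicate 1 it was -0.36 (adjusted p = 0.151). Braf shares 146 exonic bases with Ndufb2 on the opposite strand in GENCODE M21. The deposited loci do not touch, since that of Ndufb2 is chr6:39592582-39599471. The Ndufb2 values of the groups overlapped, at 72.5 to 104 FPKM in leukemic and 87.7 to 98.7 FPKM in preleukemic samples.

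Nf1 (chr11:79339891-79581609), the GTPase-activating protein that switches RAS off, was the other member below the preleukemic range in every leukemic sample. It stood at 5.12, 3.20 and 4.64 FPKM in leukemic and at 6.81, 5.25, 7.01 and 6.68 FPKM in preleukemic samples. The closest pair was leukemic replicate 1 and preleukemic replicate 2, and leukemic replicate 2 was the lowest of all. The mean was 32.9% lower in leukemia, 4.32 ± 1.0 (SD, n = 3) against 6.44 ± 0.802 (SD, n = 4). The log2 fold change was -0.49 (SE 0.16, 95% interval -0.88 to -0.11), which did not pass the adjusted threshold (limma adjusted p = 0.0838). Leukemic replicate 2 is also the sample with the highest erythroid sum, and within the leukemic group it has the highest BCP sum (4574 FPKM). Without it and preleukemic replicate 1 the log2 fold change of Nf1 was -0.31 (limma adjusted p = 0.264). The genes Evi2, Evi2a, Evi2b and Omg lie within Nf1 on the opposite strand and share 0 exonic bases with it.

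Cbl (chr9:44149261-44234046), the ubiquitin ligase that limits receptor signaling, stood at 25.6, 22.4 and 28.8 FPKM in leukemic samples and at 20.3, 21.3, 26.2 and 23.5 FPKM in preleukemic samples. The groups overlapped, and only leukemic replicate 3 lay above the preleukemic range. Cbl had a log2 fold change of 0.16 (SE 0.12, 95% interval -0.13 to 0.44, limma adjusted p = 0.382), which was 0.07 without leukemic replicate 3 and 0.25 without leukemic replicate 2.

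Spread among replicates differed between the members. The coefficient of variation in the preleukemic group ran from 3.72% for Nras and 4.48% for Ptpn11 to 12.5% for Nf1 and 35.5% for Flt3. In the leukemic group it was 5.05% for Nras, 15.3% for Hras, 23.2% for Nf1 and 29.0% for Flt3. Nras thus had the smallest coefficient of variation in both groups and Flt3 the largest. Counting error at the fewest fragments was 26.9% for Flt3 and 2.19% for Nras, and its part in the spread was not separated.

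Ratios between genes within a sample do not depend on how the samples were scaled to each other, and 4 are given as a description, with no test. Nras exceeded Hras by a geometric mean of 1.89-fold in leukemic and 2.41-fold in preleukemic samples. Every leukemic ratio (1.99, 1.68 and 2.01) was below every preleukemic ratio (2.19, 2.46, 2.46 and 2.55). Sos1 and Nf1 stood close to parity before leukemia, with a Sos1 to Nf1 ratio of 1.05, and at 1.69 in leukemia. The 3 leukemic values (1.50, 1.98 and 1.62) were all above the 4 preleukemic ones (0.921, 1.30, 1.09 and 0.923). The Cbl to Cblb ratio of the related ubiquitin ligases was 4.05 in leukemic and 2.30 in preleukemic samples, again with no overlap. The ratio of Sos1 to its relative Sos2 was 0.644 and 0.642 and overlapped. How often the ratios of other gene pairs do not overlap was not computed. Of the single genes tested 32% did not overlap, Nf1 and Cblb among them.

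**Figure D2:**
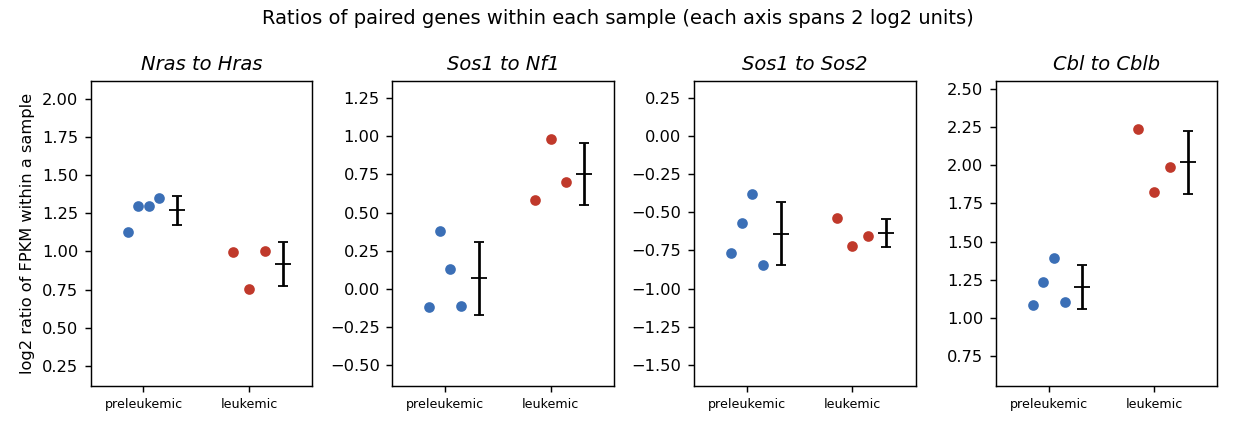
Log2 ratio of the FPKM of a pair of genes within each sample (points; blue preleukemic, n = 4; red leukemic, n = 3) with the mean and SD in black; each vertical axis spans the same number of log2 units around its own mean. Nras to Hras is lower in every leukemic sample, Sos1 to Nf1 and Cbl to Cblb are higher in every leukemic sample, and Sos1 to Sos2 overlaps.

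The rest of the pathway was followed with a list of 43 other genes (ligand, adaptors, exchange factors, GTPases, kinases, GTPase-activating proteins, ubiquitin ligases and enzymes that attach lipids to RAS), of which 40 were tested. Between the groups 3 of the 40, or 7.5%, were called, 2 higher (8.47% of all genes tested) and 1 lower (6.26%). Rras, a RAS-related GTPase, was higher in leukemia at 6.67, 6.03 and 9.06 FPKM against 4.63, 2.85, 3.04 and 3.56 FPKM (log2 fold change 0.87, SE 0.19, limma adjusted p = 0.0261). Fntb, the beta subunit of the farnesyltransferase that lipid-modifies RAS, was higher at 8.93, 9.45 and 9.25 FPKM against 6.72, 6.42, 7.16 and 5.72 FPKM (log2 fold change 0.45, SE 0.10, limma adjusted p = 0.0275). Cblb, the relative of Cbl that restrains antigen and cytokine receptor signaling, was lower at 5.43, 6.30 and 7.25 FPKM against 9.58, 9.04, 9.96 and 11.0 FPKM (log2 fold change -0.58, SE 0.12, limma adjusted p = 0.0226). In each of these 3 genes the groups did not overlap. Each call was lost when preleukemic replicate 2, 3 or 4 was left out, with adjusted p from 0.0515 to 0.0810, and the calls over all genes then numbered 457, 273 and 106 in place of 1553. The Rras call was also lost without leukemic replicate 3 (adjusted p = 0.0536), and the Fntb call without leukemic replicate 2, leukemic replicate 3 or preleukemic replicate 1 (adjusted p from 0.0515 to 0.0556) and after TPM rescaling (0.0628). With no filter on low values Rras (0.0779) and Cblb (0.0544) missed the threshold. Without leukemic replicate 2 and preleukemic replicate 1 the adjusted p was 0.0275 for Rras, 0.0975 for Fntb and 0.0774 for Cblb.

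Over the 40 genes the median log2 fold change was -0.02, beside -0.02 over all genes tested, and 21 were below 0. Values did not overlap in 4 higher and 7 lower genes, beside 14.9% and 17.1% of all genes tested. Abundant genes of the list did not pass: Rasgrp2, an exchange factor of blood cells, averaged 224 and 238 FPKM in leukemic and preleukemic samples (log2 fold change -0.10, adjusted p = 0.543), and Ppp1cb, a phosphatase subunit that primes RAF, averaged 141 and 142 FPKM (-0.01, adjusted p = 0.943). The phosphatase Ptpn6 averaged 134 and 148 FPKM (-0.14, adjusted p = 0.412). Rasa3, a GTPase-activating protein, ranged widely in leukemia at 46.1, 125 and 78.4 FPKM against 116 to 128 FPKM before it (-0.67, adjusted p = 0.152). Of the relatives of the members, Araf at 29.9 and 35.5 FPKM (-0.24, adjusted p = 0.178) and Sos2 at 11.1 and 10.5 FPKM (0.08, adjusted p = 0.519) did not pass either. The 3 genes below the filter were Rasgrp1 at 0.854 to 1.61 FPKM over all samples, and Mras and Cblc, each at or near the listed floor of 0.01 FPKM in preleukemic samples.

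**Figure D3:**
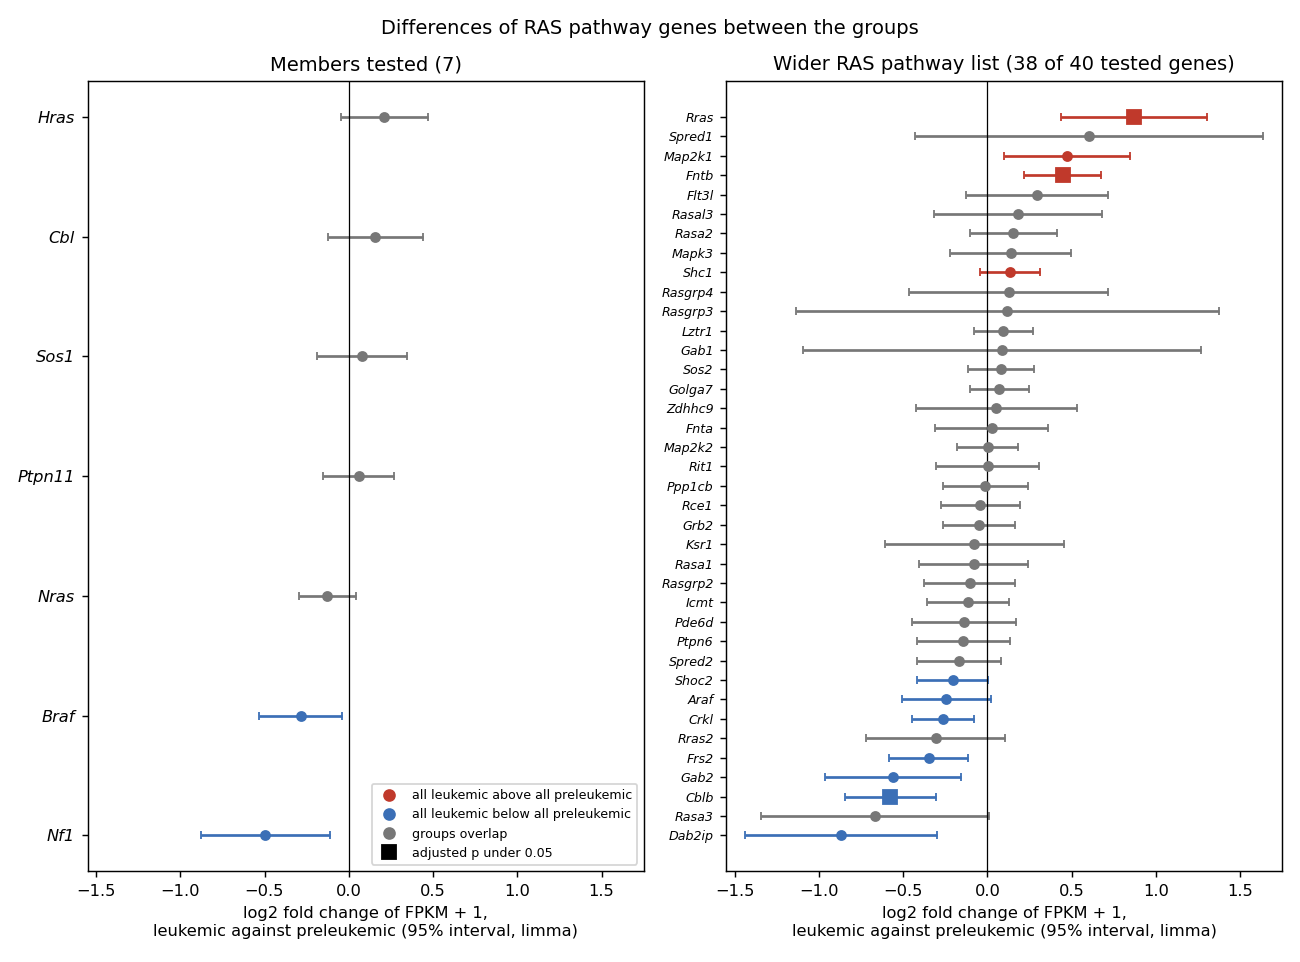
Log2 fold change of FPKM + 1, leukemic against preleukemic, with the 95% limma interval, for the 7 members tested (left) and 38 of the 40 tested genes of the wider list (right). Red and blue mark genes whose leukemic values all lie above or all below the preleukemic values, gray marks overlap, and squares mark an adjusted p under 0.05, which Rras, Fntb and Cblb reach and none of the 7 members does.

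The members were also set against the genes around them, because the chromosomes did not move evenly. Over the 592 tested genes of chromosome 17 the median log2 fold change was 0.35, the highest of all chromosomes, and 85.0% of genes were above 0, against 47.9% of all genes tested. Chromosome 9 came next with 0.22 over 596 genes, 74.5% of them above 0. In leukemic replicates 1 to 3 the chromosome 17 medians were 0.35, 0.33 and 0.38 above the preleukemic mean, while those of chromosome 9 were 0.32, 0.25 and 0.07. The labels give no karyotype for these samples, and gene copy number was not tested. Sos1 on chromosome 17, at 0.08, lay at percentile 22.0 of its chromosome. Cbl on chromosome 9, at 0.16, lay at percentile 40.8, and its lead sample differed from that of its chromosome: Cbl was 0.33 above the preleukemic mean in leukemic replicate 3, where the chromosome median was smallest. Over the 3 leukemic samples neither gene was above the median gene of its chromosome. Of the other members, Flt3 lay at percentile 95.8 of the tested genes of chromosome 5, a set without Flt3 itself, which missed the filter. The median there was -0.05, and Ptpn11 on the same chromosome lay at percentile 63.3. Hras lay at percentile 79.5 on chromosome 7, Nras at 42.9 on chromosome 3, Braf at 27.6 on chromosome 6 and Nf1 at 7.86 on chromosome 11.

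**Figure D4:**
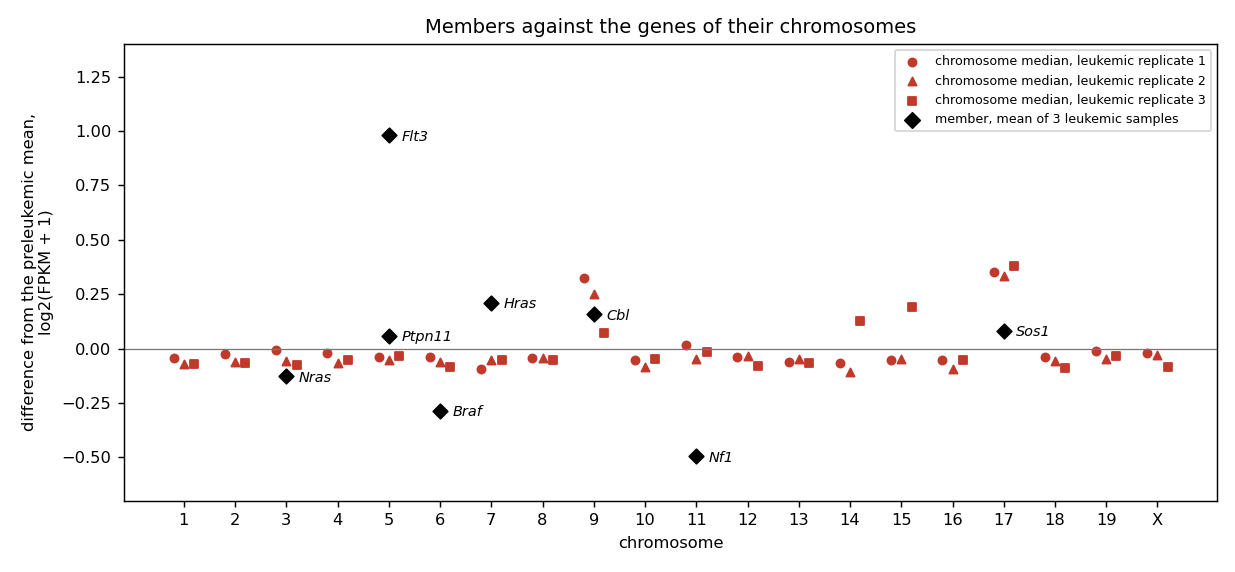
Median difference from the preleukemic mean, in log2(FPKM + 1), over the tested genes of each chromosome in each leukemic sample (red), with the mean difference of each member on its chromosome (black diamonds). Flt3 is drawn but is not among the tested genes. Chromosome 17 medians lie at 0.33 to 0.38 in all 3 samples, and Sos1 and Cbl lie below the medians of chromosomes 17 and 9 over the 3 samples.

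Genes whose log2(FPKM + 1) pattern was most like that of a member were sought among about 8761 tested genes with a mean of at least 5 FPKM, by Pearson correlation over the 7 samples, as a description. The points share their library and the split between the groups. For Flt3 the closest were the ribosomal protein gene Rps16 (0.994) and Eny2 (0.992), and 105 genes exceeded 0.95. For Braf they were Jkamp (0.994) and Pds5b (0.994), with 45 genes above that value, and for Nf1 Phax (0.982) and Cep19 (0.982), with 25. Nras was closest to Foxn3 (0.988) and Sphk2 (0.985) and Ptpn11 to Gstcd (0.984) and Fgf13 (0.983). For Hras they were Apol11b (0.975) and the glycolytic enzyme gene Aldoa (0.965), and for Cbl Prrc2a (0.977) and Spg7 (0.964). Sos1 had the fewest neighbours, with Isoc2a (0.982) as the 1 gene above 0.95 and Thada (0.935) next. No member was among the closest pair of another.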

How the data were processed

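RNA of 7 BCP samples was sequenced by the authors, who deposited 1 FPKM value per gene and sample, with no value below 0.01. The submitters' processing notes name STAR 2.5.0b, bedtools 2.17.0, Cufflinks 2.2.1, Bowtie, DESeq2 and the mm10 build, with no role for each, and how FPKM was made, including the use of strand in counting, is not given in the sources used here. The study states a DESeq2 test of counts, which FPKM does not allow. From the deposited values, limma 3.58.1 was fitted in R 4.3.3 to log2(FPKM + 1) with an intensity trend, over the 10541 genes with a summed FPKM of at least 10, 3 leukemic against 4 preleukemic samples, with no covariate, and p-values were adjusted by Benjamini-Hochberg over all genes tested. The threshold of 0.05 follows the study. The number in the filter is also the study's, but there it is a sum of counts and here a sum of FPKM, a different quantity, which Flt3 (about 14 to 124 fragments per sample) did not reach. Coordinates are as deposited. Flt3 was tested by an exact permutation of the samples. Depth was implied from the steps between low values, taken as whole fragments, of genes over 2500 bases long with 1 annotated transcript. The step was the median of the values in a fixed window, which limits the depths it can return. With it, 82.0% to 89.1% of the low values lay within 0.15 of a whole number. Fragment counts are estimates on that scale and were not tested as counts. They use the length of the transcript nearest each listed position, which for Ptpn11, Hras and Cbl is not the one annotated as principal. Samples were told apart by their labels, and no pair shared more than 1 value above the floor. The scripts were tested on simulated data. All 8 members were named, and of the wider list each gene called, the 5 most abundant and relatives of the members (Sos2, Araf and Cblb), except some items that are not reported here; other genes are named where a count or a position turned on them. For likeness, the closest pair was named for each member. The members, lists and tests were chosen with earlier results of these data known. Alternatives were other pseudocounts, filters, scalings and fits, the replicate number as a block, and leaving out samples; leaving out leukemic replicate 2 with preleukemic replicate 1 was chosen after seeing the data.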

Additional observations from a re-analysis of the deposited data

Results flagged for a closer look

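Of 31 groups of 4 preleukemic values examined, 2 had a sample far from the other 3, where chance gives about 1 in 20. Ptpn6, a phosphatase of the wider pathway list, stood at 170.0 FPKM in preleukemic replicate 4, against 138, 142 and 143 FPKM in the others. The summed erythroid markers stood at 2116 FPKM in preleukemic replicate 1, against 326 to 353 FPKM in the others. Flt3 was highest of its group in the latter sample, at 0.648 FPKM. No value of the 8 members was set apart in this way.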

How the results depend on the processing

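Over 16 alternatives 0 members were called in 14. The exceptions were the TPM rescaling, which called 3, and no filter on low values, which called 1 (Flt3). Flt3 was in the limma fit only with no filter, so the other alternatives could not call it. The replicate block called 0 genes (0 higher, 0 lower, and 2429 at an unadjusted p under 0.05) and 0 of the wider list in either direction. Preleukemic replicate 4 has no leukemic sample of its number, so the block fit takes no group difference from it. Its log2 fold changes equal those without that sample (Nf1 -0.477 in both), and the block terms leave fewer degrees of freedom. Replicate numbers in the labels did not pair the samples (correlations of same-numbered deviations 0.029, 0.05 and -0.092). The 893 higher and 660 lower calls over all genes became 548 and 403 at a summed FPKM of at least 70, 428 and 278 with no filter, and 557 and 413 without leukemic replicate 2 and preleukemic replicate 1, while the TPM rescaling gave 2231 lower calls. Leaving out 1 sample gave 74 to 818 higher and 32 to 711 lower calls. The called genes were 57.5% higher in leukemia, 45.4% after quantile normalization and 23.5% after TPM rescaling.

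In the wider list the 2 higher calls became 1 with no filter or with TPM. The 1 lower call became 0 with no filter, 3 after quantile normalization, 7 with TPM and 2 without leukemic replicate 2 and preleukemic replicate 1. At a summed FPKM of at least 70 there were 0 higher and 0 lower calls. That filter removed Rras, Fntb and Cblb (sums 35.8, 53.7 and 58.5), so their calls were not tested there. Leaving out 1 sample gave 0 to 2 higher and 0 to 3 lower.

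After TPM rescaling the log2 fold changes of Cbl (-0.0011), Ptpn11 (-0.1034) and Sos1 (-0.0683) turned below 0, and none of them was called. Leaving out 1 sample moved Ptpn11 between -0.0244 (without leukemic replicate 1) and 0.1103. At a summed FPKM of at least 70 only 4 members (Ptpn11, Nras, Hras and Cbl) could be fitted. The log2 fold change of Flt3 stayed between 0.86 and 1.86, that of Nf1 between -0.69 and -0.31 and that of Braf between -0.46 and -0.23. With 1 sample left out the exact test of Flt3 cannot go below 0.0667 or 0.1, and says nothing there. TPM rescaling divides by the FPKM total, which was 507400 to 539900 in leukemic and 448000 to 471400 in preleukemic samples. It therefore lowers every leukemic value relative to the preleukemic ones. The cause of the higher totals and of the other shifts was not tested. At this depth Flt3 rested on few fragments, and differences of the size of the intervals given could not be resolved with 3 and 4 samples.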
